A study of Homo sapiens with 8 samples.

Results

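SSX1, MAGEA12, CSAG1, MAGED1 and MAGED2 are 5 of the 11818 genes with values in HCCLM3 cells, an established human hepatocellular carcinoma line. The first 3 are cancer-testis genes and the MAGED genes are family members that most tissues use. The 5 genes were chosen by their values in these same libraries, SSX1 because it appeared and MAGEA12 with CSAG1 because they vanished in the siRNA columns, and the MAGED genes as a comparison. Their siRNA and NC values are therefore a description, without a test. Passing the filter on low values rested on the siRNA libraries for SSX1 and on the NC libraries for MAGEA12 and CSAG1, so each of these had to differ between the groups.

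The study asked what follows when circPTK2, a circular RNA from the PTK2 gene, is silenced. The siRNA group holds 4 libraries of cells transiently transfected with an siRNA against circPTK2, and its genotype label is a circPTK2 knock down. The NC group holds 4 libraries with the genotype label WT. Whether NC cells were given a control siRNA is not stated, and NC is not spelled out. Both groups are the same line in the same medium, and nothing says that replicates were grown apart, so the p-values cover no more than the scatter among these 8 libraries, possibly a technical one.

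Cancer-testis genes are normally read in germ cells and little elsewhere, and tumours often switch them on, many of them on the X chromosome and in step with loss of DNA methylation at their start sites. The SSX genes encode nuclear proteins that act on transcription together with Polycomb-bound chromatin, and SSX1 is known from its fusion with SS18 in synovial sarcoma. MAGE proteins share a common homology domain with which they bind RING-type ubiquitin ligases and steer what these ligases act on; the MAGE-A and MAGE-C groups are cancer-testis genes, whereas MAGED1, MAGED2, MAGEF1 and NSMCE3 are used broadly.

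The sequences around the starts of SSX1 and MAGEA12, members with changes of opposite direction, are shown with that of MAGEA3, a relative 25.1 kb from CSAG1 that was higher in siRNA libraries. They are 300-base RefSeq promoter windows on GRCh38.p14, from 250 bases before a start to 50 after it, all on the plus strand of chromosome X. SSX1 is at chrX:48255142-48255441, MAGEA12 (the second of its 2 windows) at chrX:152733612-152733911 and MAGEA3 at chrX:152698544-152698843. Capitals mark each CG, the pair of bases that can carry methylation.
SSX1: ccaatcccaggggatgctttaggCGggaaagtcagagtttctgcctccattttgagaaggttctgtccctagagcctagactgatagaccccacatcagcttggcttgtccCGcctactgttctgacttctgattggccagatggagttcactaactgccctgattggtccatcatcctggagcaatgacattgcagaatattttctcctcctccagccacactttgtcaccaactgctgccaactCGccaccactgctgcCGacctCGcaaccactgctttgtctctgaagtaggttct
MAGEA12: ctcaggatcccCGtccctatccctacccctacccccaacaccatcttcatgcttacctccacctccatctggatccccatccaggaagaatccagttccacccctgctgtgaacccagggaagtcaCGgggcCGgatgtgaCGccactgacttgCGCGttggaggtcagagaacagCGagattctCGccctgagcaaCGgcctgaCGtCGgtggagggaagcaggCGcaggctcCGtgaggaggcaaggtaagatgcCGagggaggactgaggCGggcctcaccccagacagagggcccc
MAGEA3: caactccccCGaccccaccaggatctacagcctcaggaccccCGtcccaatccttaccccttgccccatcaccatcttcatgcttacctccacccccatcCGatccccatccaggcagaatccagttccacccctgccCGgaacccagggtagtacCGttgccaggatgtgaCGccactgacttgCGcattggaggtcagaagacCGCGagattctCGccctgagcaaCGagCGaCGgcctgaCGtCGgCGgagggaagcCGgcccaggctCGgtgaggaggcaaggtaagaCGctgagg
The SSX1 window holds 5 CG pairs, the MAGEA12 window 15 and the MAGEA3 window 19, where the median of all 35116 RefSeq windows is 14 and the quartiles are 4 and 28. The window of CSAG1, on the minus strand, holds 16 and shares 240 bases with the printed MAGEA12 window. The first MAGEA12 window, which is not printed, holds 9 CG pairs and shares 135 bases with that of CSAG1. Aligned with MAGEA3, the printed MAGEA12 window had the same base in 234 of 270 columns, or 86.7%. MAGEA6 has the same 300 bases as MAGEA3. The letters CCGGA, searched on both strands, stood once in the MAGEA12 window and once in that of MAGEA3, and 41.2% of all windows hold them. The letters TGACG, searched likewise on both strands, stood 2 times in each of these windows and in 24.6% of all windows. Neither run of letters was in the SSX1 window.

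Recovered reads on the listed genes ran from 28077305 to 32532669 in the siRNA libraries and from 37087203 to 43512175 in the NC libraries. The NC libraries fell into 2 pairs. The Spearman correlation over genes was 0.985 between NC replicates 1 and 2, 0.987 between replicates 3 and 4, and 0.9195 to 0.938 across the pairs, against 0.990 to 0.995 among siRNA libraries and 0.894 to 0.933 between siRNA and NC libraries. Values against each NC pair are therefore given beside the members' values. Linear PTK2 messenger RNA, which does not measure the circular form, stood at 213 ± 6.89 in siRNA libraries and 185 ± 28.8 in NC libraries (SD, n = 4 each; limma log2 change 0.21, SE 0.11, Benjamini-Hochberg adjusted p = 0.167). Of 15 hepatocyte and liver cancer markers 11 were measured, and the list of 10 germ cell markers had 0 in the table. Among the liver markers 4 were higher in siRNA libraries, ALB among them at 32.0 ± 6.05 against 9.20 ± 1.18 in NC libraries, 5 were lower (AFP, APOB, TF, FGB and KRT8) and 2 did not pass. Over all tested genes 21.7% were higher and 20.8% lower by the same limma test. RBP4, among the higher markers, was at most 0.320 in NC libraries and passed the filter on low values only through the siRNA libraries. Of other cell types, 0 of 6 leukocyte markers, 1 of 8 fibroblast markers (LUM, not past the threshold) and 1 of 5 endothelial markers were measured, the last being PECAM1 at 3.96 ± 0.735 in siRNA libraries and 13.0 ± 5.11 in NC libraries (limma adjusted p = 0.00248). The part of these shifts, or of the NC pairs, in the values below was not tested, and in bulk RNA fewer cells with a transcript and less of it per cell cannot be told apart.

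SSX1 was high in all siRNA libraries and low in all NC libraries. It lies on chromosome X from 48255317 to 48267444 on the plus strand (GRCh38, GENCODE v29). Values are the deposited ones, library-scaled reads after the authors' TMM normalization. SSX1 had 53.3, 46.0, 53.8 and 57.6 in siRNA replicates 1 to 4, and 0.710, 0.888, 1.45 and 0.837 in NC replicates 1 to 4. Every siRNA library lay far above every NC library, and the siRNA libraries differed little among themselves. Behind these values stood 1413 to 1746 reads per siRNA library and 27 to 67 reads per NC library, so SSX1 reads were present in every NC library. The mean was 52.7 ± 4.85 in siRNA libraries and 0.972 ± 0.329 in NC libraries (SD, n = 4 each), a ratio of 54.2, and the ratio was 65.9 against NC replicates 1 and 2 and 46.0 against NC replicates 3 and 4. On the log2(value + 1) scale the change was 4.78, the 7th largest increase of 11812 tested genes. Per kilobase of exon the SSX1 level stood at the 91.2 percentile of all genes in siRNA libraries and at the 9.95 percentile in NC libraries.

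MAGEA12, whose MAGE-A protein family binds ubiquitin ligases such as TRIM28, showed the opposite pattern. It lies on chromosome X from 152733779 to 152737669 on the plus strand. MAGEA12 had 0.142, 0.521, 0.0617 and 0.217 in siRNA replicates 1 to 4, and 28.4, 32.1, 32.6 and 28.8 in NC replicates 1 to 4. The siRNA values rest on 4, 16, 2 and 6 reads, against 1079 to 1503 reads in the NC libraries. All siRNA libraries were near 0 and all NC libraries were close together, including across the NC pairs. The mean was 0.235 ± 0.200 in siRNA libraries and 30.5 ± 2.18 in NC libraries (SD, n = 4 each), 99.2% lower in siRNA libraries. Set the other way round, the NC mean was 129 times the siRNA mean, 128.5 times with NC replicates 1 and 2 alone and 130.4 times with NC replicates 3 and 4 alone. Of the 28 siRNA reads 16 were in replicate 2, and without that library the NC mean was 217 times the siRNA mean. The log2 change of -4.68 was the 2nd largest decrease of the 11812 genes. Of all stretches of 150 bases, the read length, in MAGEA12 transcripts, 0.961% also occur in another gene, MAGEA2 or MAGEA2B.

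CSAG1, found first in chondrosarcoma and expressed together with MAGE genes in tumours, is the gene next to MAGEA12. It lies on chromosome X from 152727484 to 152733735 on the minus strand, and its annotated start is 44 bases from that of MAGEA12, with the genes pointing away from each other. CSAG1 had 0.392, 0, 0 and 0 in siRNA replicates 1 to 4, and 15.6, 19.8, 16.4 and 15.1 in NC replicates 1 to 4. In siRNA cells all 11 reads came from replicate 1, and the NC libraries held 594 to 755 reads each. The mean was 0.0979 ± 0.196 in siRNA libraries and 16.7 ± 2.13 in NC libraries (SD, n = 4 each), which is 99.4% lower in siRNA libraries. The NC mean was 171 times the siRNA mean, 180.8 times with NC replicates 1 and 2 alone and 160.4 times with NC replicates 3 and 4 alone. With siRNA replicate 1 at its measured value and the other siRNA libraries set to the floor of 3 reads, a level that covers counting error only, CSAG1 was at least 96.8-fold lower in siRNA libraries. Over siRNA replicates 2 to 4 alone, all at that floor, it was at least 168-fold lower. The log2 change of -4.02 was the 4th largest decrease.

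MAGEA12 and CSAG1 were alike in their NC libraries as well as in their loss. The ratio of the MAGEA12 value to the CSAG1 value was 1.84 ± 0.159 over the 4 NC libraries, with a range from 1.62 to 1.99. Per kilobase of exon the NC levels were 15.7 for MAGEA12 and 15.3 for CSAG1. On that measure the genes on either side of the shared start region were at about the same level in NC cells. In siRNA replicate 1, the library with CSAG1 reads, the ratio was 0.364 from 4 and 11 reads, too few to set beside the NC ratio. Strand use in the counting is not stated, but the annotated gene bodies do not overlap. No 150-base stretch of CSAG1 occurs in another gene.

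MAGED1, an adaptor that binds the neurotrophin receptor NGFR and the ubiquitin ligase PJA1, was lower in siRNA libraries too, though far from absent. It lies on chromosome X from 51803007 to 51902357 on the plus strand. MAGED1 had 66.9, 67.3, 69.3 and 72.0 in siRNA replicates 1 to 4, and 147, 152, 218 and 216 in NC replicates 1 to 4. The siRNA libraries were tight, whereas NC replicates 3 and 4 stood 1.45 times above NC replicates 1 and 2. The mean was 68.9 ± 2.34 in siRNA libraries and 183 ± 39.0 in NC libraries (SD, n = 4 each), 62.4% lower in siRNA libraries. The NC mean was 2.17 times the siRNA mean in NC replicates 1 and 2 and 3.15 times in NC replicates 3 and 4, so the size depended on the NC pair and the direction did not. The log2 change was -1.37, the 293rd largest decrease.

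MAGED2, known for its part in salt handling by the kidney before birth through the G protein subunit GNAS, differed least. It lies on chromosome X from 54807599 to 54816012 on the plus strand. MAGED2 had 71.6, 76.2, 75.3 and 85.7 in siRNA replicates 1 to 4, and 92.6, 88.7, 105 and 97.2 in NC replicates 1 to 4. The highest siRNA library came close to the lowest NC library without reaching it. The mean was 77.2 ± 6.0 in siRNA libraries and 96.0 ± 7.18 in NC libraries (SD, n = 4 each), 19.6% lower in siRNA libraries, with an NC mean 1.17 times the siRNA mean in NC replicates 1 and 2 and 1.31 times in NC replicates 3 and 4. The log2 change was -0.31, at place 3484 in the order of decreases. All 5 genes had groups without overlap, as had 43.3% of the 11812 genes tested. These values led to the choice of the genes, so nothing is read from that count.

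**Figure D1:**
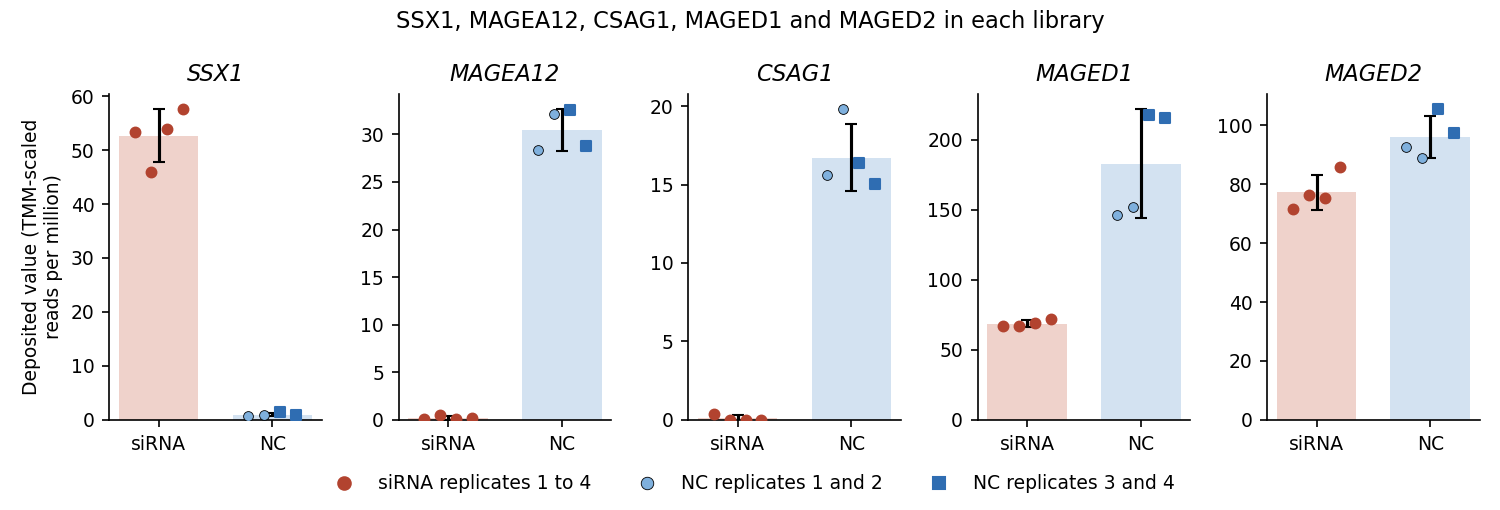
Deposited values (TMM-scaled reads, linear axes from 0) of SSX1, MAGEA12, CSAG1, MAGED1 and MAGED2 in each siRNA and NC library; bars are means, whiskers are SD over 4 libraries, and light and dark blue mark the NC pairs. SSX1 stood at 46.0 to 57.6 in siRNA libraries and at most 1.45 in NC libraries, MAGEA12 and CSAG1 were near 0 in siRNA libraries, and the NC libraries of MAGED1 split by pair.

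Compared per kilobase of exon, the order of the 5 genes changed between the groups. In siRNA libraries SSX1 came first at 40.6, followed by MAGED2 at 26.3 and MAGED1 at 11.4, with ranges that did not overlap. MAGEA12 at 0.121 and CSAG1 at 0.0897 came last with overlapping ranges. In NC libraries MAGED2 at 32.7 (30.2 to 35.9) and MAGED1 at 30.4 (24.4 to 36.2) overlapped at the top, MAGEA12 and CSAG1 overlapped in the middle, and SSX1 was last at 0.749. The broadly used MAGED genes also changed relative to each other: the per-kilobase ratio of MAGED1 to MAGED2 was 0.437 ± 0.0204 in siRNA libraries, from 0.411 to 0.456, and 0.926 ± 0.145 in NC libraries, from 0.774 to 1.08 (SD, n = 4 each). The NC ratios were 0.774 and 0.837 in replicates 1 and 2, and 1.01 and 1.08 in replicates 3 and 4. Lengths count every annotated exon, 6.016 kb for MAGED1 and 2.94 kb for MAGED2, so which gene was scarcer per kilobase depends on them. The deposited MAGED1 values were below those of MAGED2 in every siRNA library and above them in every NC library.

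Likeness between genes was measured as the root mean square difference of log2(value + 1) profiles, each centred on its own mean over the 8 libraries, among 10260 genes with a mean of at least 5. These likenesses are descriptions. COL6A3, a collagen VI chain, had the profile most like SSX1 at 0.20, with 82.6 ± 4.78 in siRNA libraries and 2.40 ± 0.363 in NC libraries, followed by the retinol carrier RBP4 at 0.29 and the amino acid transaminase BCAT1 at 0.30. OLFM1, a secreted olfactomedin, was, members apart, most like CSAG1 at 0.21 and most like MAGEA12 at 0.46. MAGEA12 and CSAG1 differed from each other by 0.41. OLFM1 had 3.69 ± 0.347 in siRNA libraries and 70.4 ± 14.0 in NC libraries, so it was not near 0 in siRNA libraries as these 2 members were. The 1 added before the log2 shrinks differences between values near 0, so a small distance does not mean a like ratio. After OLFM1 came CPLX2 at 0.50 and ITM2A at 0.60 for MAGEA12, and ACKR3 at 0.48 and WNT5A at 0.50 for CSAG1. ITM2A is the only one of these that lies on chromosome X. For MAGED1 the closest profiles were those of CHD1L at 0.064, RTF1 at 0.072 and AP3D1 at 0.075, all higher in NC replicates 3 and 4 than in NC replicates 1 and 2. For MAGED2 they were PIK3CB at 0.063, PACRGL at 0.065 and UNC50 at 0.066, whereas MAGED1 and MAGED2 differed by 0.55.

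The other measured MAGE genes included higher and lower ones. Of 37 further MAGE superfamily symbols 7 were measured, and the rest were not analysed here. By limma with Benjamini-Hochberg adjusted p under 0.05 over all tested genes, 4 of the 7 were higher in siRNA libraries, 2 were lower and 1 did not pass. Over all genes, 42.5% were called, 21.7% higher and 20.8% lower in siRNA libraries. The list's median log2 change was 0.48, beside 0.012 over all tested genes. The 4 higher genes were the 4 cancer-testis members, MAGEA3, MAGEA6, MAGEC1 and MAGEC2, and the 2 lower ones were MAGEE1 and NSMCE3.

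MAGEA3, which with TRIM28 directs the breakdown of the energy sensor AMPK in tumour cells, was the most abundant of them. It had 98.2, 82.0, 82.7 and 74.3 in siRNA replicates 1 to 4, and 53.4, 62.5, 66.4 and 58.5 in NC replicates 1 to 4. The groups did not overlap, and the log2 change was 0.48 (SE 0.11, limma adjusted p = 0.0095). MAGEA6, its near copy, averaged 6.44 ± 1.13 in siRNA libraries and 2.39 ± 0.805 in NC libraries (log2 change 1.15, adjusted p = 0.00246). Of the 150-base stretches of MAGEA3 27.1% also occur in MAGEA6, and 25.6% of those of MAGEA6 in MAGEA3, so the split of reads between them is uncertain. Their sum was 90.7 ± 10.3 in siRNA libraries and 62.6 ± 6.32 in NC libraries.

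MAGEC2, which binds TRIM28 and is known to raise its ligase activity, averaged 31.7 ± 1.34 in siRNA libraries and 15.1 ± 3.96 in NC libraries (SD, n = 4 each; log2 change 1.06, limma adjusted p = 0.00155). MAGEC1 averaged 6.58 ± 0.985 in siRNA libraries and 2.0 ± 0.550 in NC libraries (log2 change 1.35, adjusted p = 0.000497). NSMCE3, the MAGE subunit of the SMC5/6 chromosome maintenance complex, averaged 6.36 ± 1.20 in siRNA libraries and 19.5 ± 3.11 in NC libraries (log2 change -1.48, adjusted p = 0.000206). These calls and those of MAGEA3 and MAGEA6 held in all alternatives that tested the gene. With a filter on a mean of at least 5, MAGEA6 and MAGEC1 were not tested. MAGEE1 averaged 0.943 ± 0.542 in siRNA libraries and 3.35 ± 1.81 in NC libraries, with overlapping groups (log2 change -1.10). MAGEE1 passed the filter on low values only through the NC libraries, so no p is given, though the count of lower genes includes it. Its call was lost in 8 of 20 alternatives, among them each fit without siRNA replicate 1 or 2 or without NC replicate 1, 3 or 4. MAGEF1, which forms a ligase with NSMCE1, had 23.6 ± 1.71 in siRNA libraries and 28.1 ± 2.85 in NC libraries and did not pass (adjusted p = 0.108).

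**Figure D2:**
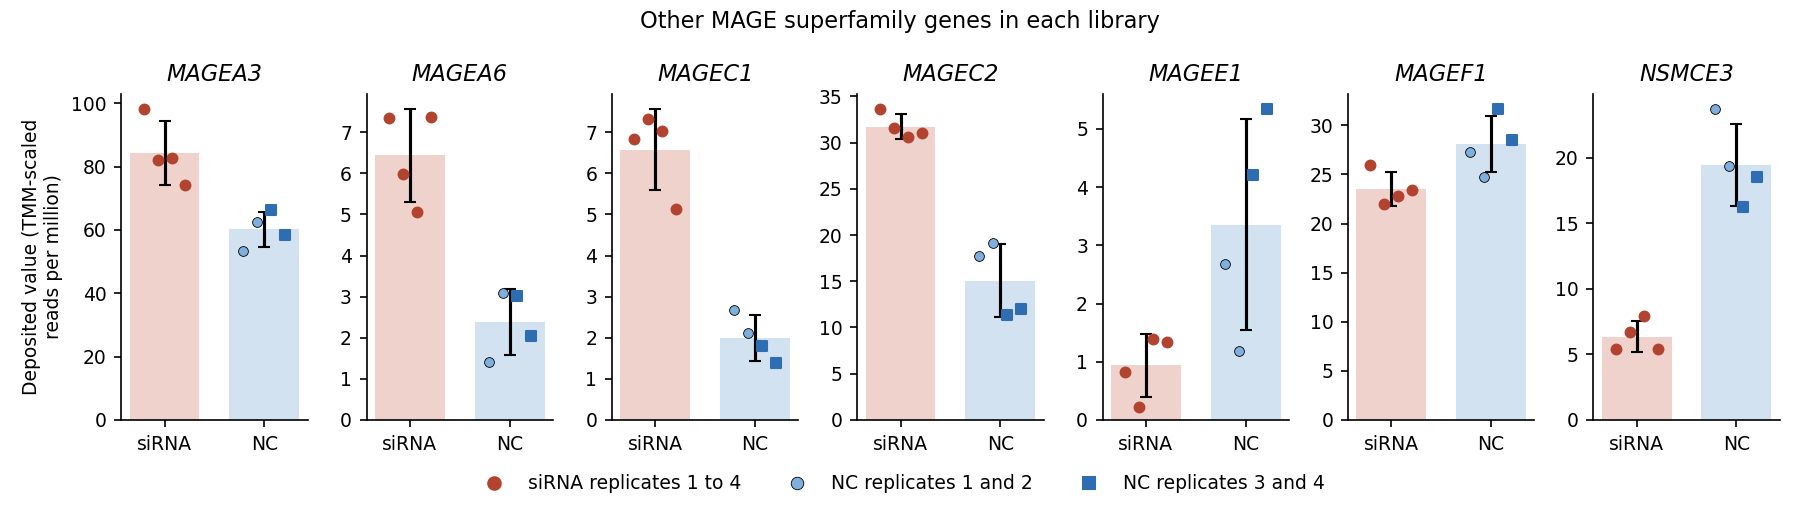
Deposited values (TMM-scaled reads, linear axes from 0) of the 7 other measured MAGE superfamily genes in each siRNA and NC library; bars are means and whiskers SD over 4 libraries. The 4 cancer-testis genes MAGEA3, MAGEA6, MAGEC1 and MAGEC2 stand higher in all siRNA libraries than in any NC library, and NSMCE3 stands lower.

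Taken over the 5 measured MAGE-A and MAGE-C genes, MAGEA12 included, the summed value was 129 ± 11.9 in siRNA libraries and 110 ± 8.18 in NC libraries (SD, n = 4 each). MAGEA12 made up 0.185% of that sum in siRNA libraries, from 0.0491% to 0.409%, and 27.7% in NC libraries, from 27.0% to 28.3%. MAGEA12 was thus nearly missing from the sum in siRNA libraries, although the mean of the sum was not lower there. Per kilobase of exon, MAGEA3 was at 47.1 in siRNA libraries and 33.7 in NC libraries, and MAGEA12 was at 0.121 in siRNA libraries and 15.7 in NC libraries.

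Of the genes around the members on chromosome X that passed the test, more were lower than higher in siRNA libraries. The 3 nearest measured genes on each side of SSX1, of MAGEA12 with CSAG1, of MAGED1 and of MAGED2 gave 24 neighbours, of which 4 were higher in siRNA libraries, 10 were lower and 10 did not pass. Over the 413 tested genes of chromosome X, 18.9% were higher and 24.7% lower, with a median log2 change of -0.052, and the neighbours' median was -0.49. Next to SSX1, the glutamine transporter gene SLC38A5, 191.1 kb after it, averaged 81.0 ± 4.33 in siRNA libraries and 38.2 ± 9.85 in NC libraries (log2 change 1.10, limma adjusted p = 0.00128). UXT and PORCN were lower around the same gene, with log2 changes of -0.57 and -0.66 (adjusted p = 0.00172 and 0.00445), and ZNF182, ZNF81 and FTSJ1 did not pass.

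Around MAGEA12 and CSAG1 the nearest measured genes moved the other way. MAGEA3 lies 25.1 kb before CSAG1 and MAGEA6 28.5 kb after MAGEA12, and both were higher in siRNA libraries. Farther out, the centrin gene CETN2 was lower (log2 change -0.59, limma adjusted p = 0.0105), while VMA21, GABRE and NSDHL did not pass. Around MAGED1, the chloride transporter gene CLCN5 fell by 1.19 on the log2 scale (adjusted p = 0.00271), and FAM156B and FAM156A fell by 1.10 and 0.95, although 97.1% and 60.2% of their 150-base stretches are shared between them. TSPYL2 had a log2 change of 0.57 (adjusted p = 0.0404) that was lost in 10 of 21 alternatives, among them every fit without 1 siRNA library and those without NC replicate 1, 3 or 4, with adjusted p up to 0.12. GSPT2, 56.8 kb before MAGED1, had 31.7 ± 1.82 in siRNA libraries and 32.2 ± 5.51 in NC libraries, and neither it nor CCNB3 passed.

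MAGED2 had the neighbours with the largest decreases. RRAGB, a GTPase of the amino acid sensing pathway 901.7 kb after it, averaged 9.37 ± 2.18 in siRNA libraries and 35.1 ± 8.32 in NC libraries (SD, n = 4 each; log2 change -1.79, limma adjusted p = 0.000336). FGD1, an exchange factor for CDC42, averaged 2.93 ± 0.265 in siRNA libraries and 10.6 ± 2.30 in NC libraries (log2 change -1.54, adjusted p = 0.000206). TSR2 and FAM104B were lower by smaller amounts, with log2 changes of -0.86 and -0.64, and GNL3L and APEX2 did not pass. MAGED2 itself, with a log2 change of -0.31, had a smaller change than each of these 4 lower neighbours.

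**Figure D3:**
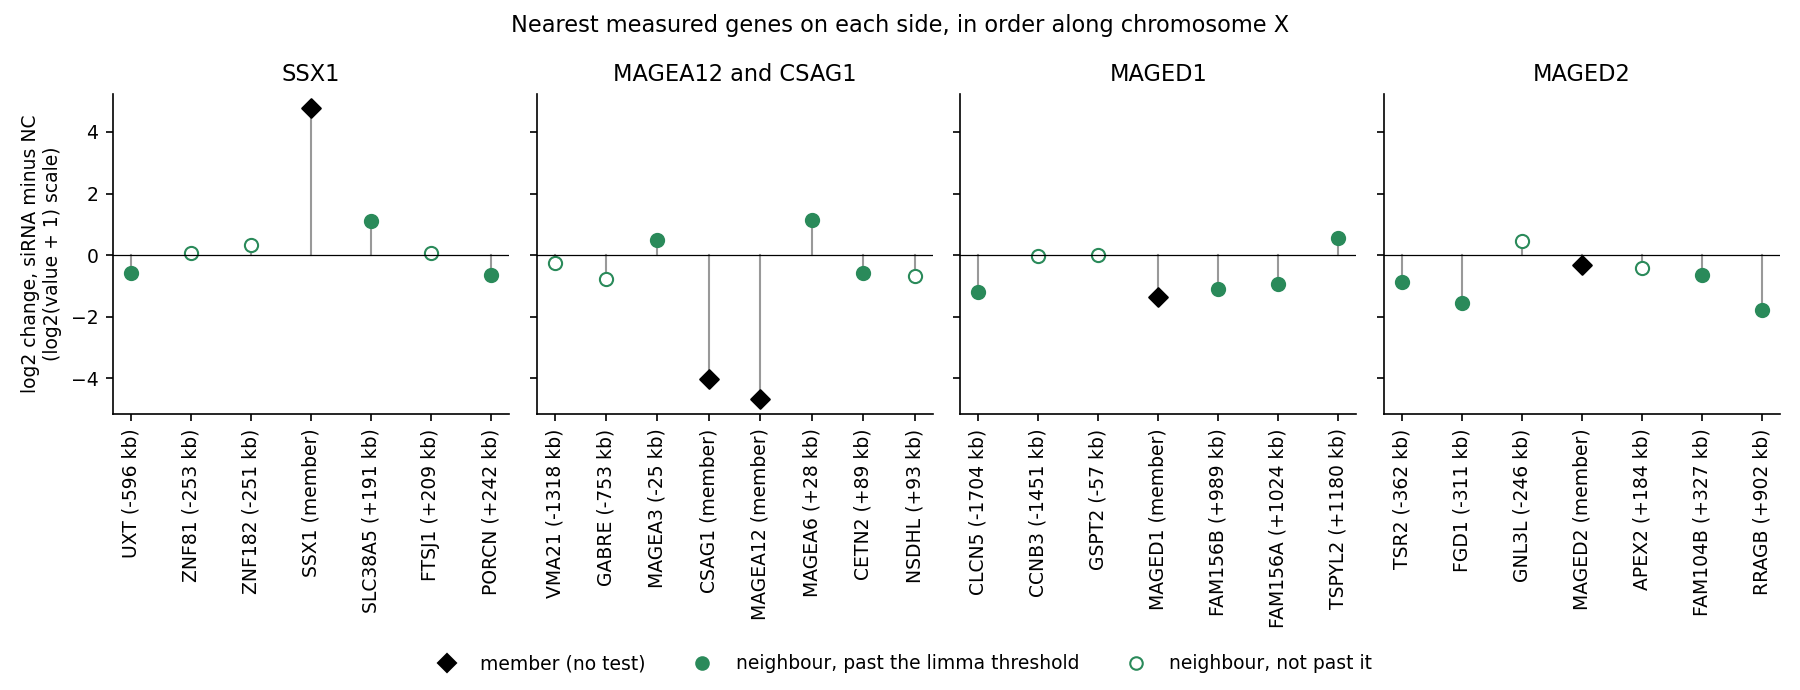
Log2 change, siRNA minus NC on the log2(value + 1) scale, of each member (black diamonds, no test) and of its nearest measured genes in order along chromosome X, with distances in kb; filled green circles passed the limma threshold. MAGEA3 and MAGEA6, on either side of CSAG1 and MAGEA12, lie above 0 while the 2 members lie at -4.02 and -4.68.

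Among other cancer-testis genes changes went in both directions. Of 150 listed symbols 37 were measured, of which 8 were higher in siRNA libraries, 9 were lower and 20 did not pass, a share called of 17 in 37 beside 42.5% over all genes, and the median log2 change was 0.11. Without siRNA replicate 3 the count called was 11, and without NC replicates 1 and 2 it was 27. Over all 11812 tested genes these fits called 3947 and 7782, beside 5015 with all 8 libraries. On the log2(value + 1) scale the largest increase was that of NR6A1, a germ cell nuclear receptor, at 7.54 ± 1.13 in siRNA libraries and 1.84 ± 0.511 in NC libraries (log2 change 1.60, limma adjusted p = 0.000179). COX6B2, a testis form of a respiratory chain subunit, averaged 1.78 ± 0.498 in siRNA libraries and 0.0863 ± 0.113 in NC libraries, a ratio of means of 20.7, against 4.11 for NR6A1. It passed the filter on low values only through the siRNA libraries, so no p is given, though the count of higher genes above includes it. SPANXD, of a sperm nucleus protein family on chromosome X, had a log2 change of 1.48. Like COX6B2, SPANXD needed the siRNA libraries to pass the filter, so it is given without a p, though counted among the higher genes. TMEFF1 had a log2 change of 1.38 (adjusted p = 0.00176). Reads of TMEFF1 cannot be told from a readthrough transcript over 74.6% of its stretches.

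HORMAD1, a meiotic chromosome axis protein, had 0 reads in all 4 siRNA libraries and a mean of 1.56 ± 0.239 in NC libraries, at least 15.4-fold lower in siRNA libraries against a mean floor of 3 reads per library. It passed the filter only through the NC libraries, so no p is given, though the list's count of lower genes includes it. It was thus not detectable in siRNA libraries at this depth, like CSAG1 in siRNA replicates 2 to 4. KIF2C, a kinesin that takes microtubules apart at kinetochores, averaged 32.5 ± 2.78 in siRNA libraries and 80.7 ± 11.3 in NC libraries (log2 change -1.28, adjusted p = 0.000108). CABYR, a calcium-binding protein of the sperm tail, fell by 1.09 on the log2 scale (adjusted p = 0.000846). TAF7L, a germ cell transcription factor subunit, fell by 0.74. Like HORMAD1, TAF7L needed the NC libraries to pass the filter, so it is given without a p, though counted among the lower genes. The list also holds mitotic genes that any dividing cell uses, KIF2C among them.

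Genes whose proteins MAGE and SSX proteins are known to bind were split between higher and lower in a way that moved with the threshold. Of 39 listed 35 were measured, with 4 higher in siRNA libraries, 12 lower and 19 not past the threshold, beside 21.7% higher and 20.8% lower over all genes, and a median log2 change of -0.18. At adjusted p under 0.01 the split was 4 higher and 4 lower, with a replicate block 5 higher and 7 lower, and without any 1 siRNA library 4 higher and 7 lower. TRIM27, the ligase that works with MAGEL2, averaged 65.6 ± 2.09 in siRNA libraries and 151 ± 17.0 in NC libraries (log2 change -1.18, limma adjusted p = 6.03e-05). NSMCE4A, which sits beside NSMCE3 in the SMC5/6 complex, fell by 1.12 (adjusted p = 0.00248), and WASHC1 of the endosomal WASH complex by 1.07 (adjusted p = 0.000914), although 33.9% of its stretches also occur in other WASH family sequences. RING1, a Polycomb ligase, fell by 0.54 (adjusted p = 0.00864), whereas its paralog RNF2 rose by 0.75 (adjusted p = 0.00727).

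Higher in siRNA libraries were PJA2, a RING ligase, at 62.5 ± 2.24 against 32.6 ± 4.07 in NC libraries (log2 change 0.92, limma adjusted p = 0.000262), and SMARCC1, a core subunit of the chromatin remodeller that SS18-SSX joins, at 274 ± 14.0 against 166 ± 20.2 in NC libraries (log2 change 0.72, adjusted p = 0.000825). WASHC4 was higher as well (log2 change 0.63, adjusted p = 0.00325). Of the SMC5/6 complex NSMCE3 and NSMCE4A were lower, while SMC5, SMC6, NSMCE1 and NSMCE2, named after their values were seen, did not pass. WASHC1 and WASHC4 moved in opposite directions, as did RING1 and RNF2. The TRIM28 gene itself, the ligase of MAGEA3, MAGEA6 and MAGEC2, had 342 ± 20.6 in siRNA libraries and 498 ± 124 in NC libraries (log2 change -0.51, adjusted p = 0.0373); it was named after its values were seen. Its call was lost in 9 of 20 alternatives, with adjusted p up to 0.0971, among them every fit without 1 siRNA library and those without NC replicate 3 or 4. Without NC replicates 3 and 4 the number of partner genes called was 25. That fit called 6830 of all 11812 tested genes, beside 5015 with all 8 libraries.

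**Figure D4:**
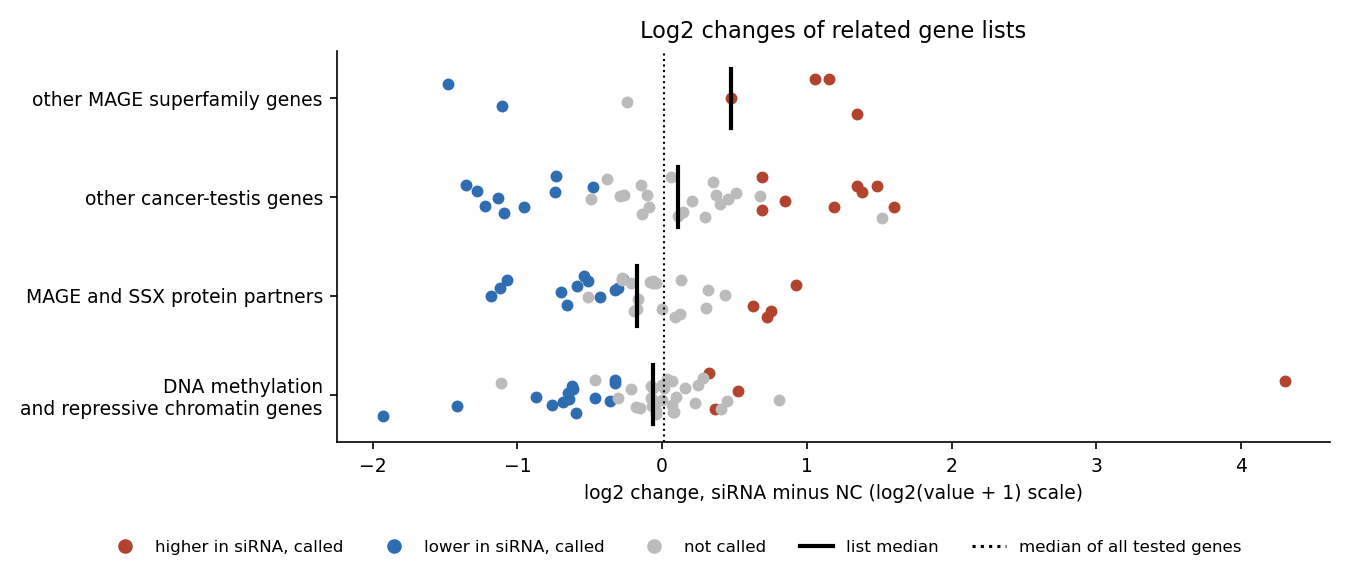
Log2 change, siRNA minus NC on the log2(value + 1) scale, of each measured gene of 4 related lists, coloured by limma call; black bars are list medians and the dotted line is the median of all tested genes. Every list has genes on both sides of 0, with medians of 0.48, 0.11, -0.18 and -0.06 from top to bottom, and the point beyond 4 is CDCA7L.

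DNA methylation and repressive chromatin are known to keep cancer-testis genes silent, and the list of such genes had a share called close to that over all genes. The list also holds DNA demethylation genes and general transcription factors, so not all of it is silencing machinery. Of 50 listed 48 were measured and 18 called, beside 42.5% over all genes. By direction 4 were higher in siRNA libraries and 14 lower, beside 21.7% higher and 20.8% lower over all genes. The other 30 were not past the threshold, and the median log2 change was -0.06. CDCA7L, a relative of the CDCA7 subunit of a nucleosome remodeller needed for DNA methylation, had 18.7 ± 1.44 in siRNA libraries and 0 reads in all NC libraries, at least 251-fold higher against a mean floor of 3 reads per library. It passed the filter only through the siRNA libraries, so no p is given, though the list's count of higher genes includes it. It shares with SSX1 the pattern of high values in siRNA libraries and low or no reads in NC libraries. ATF7IP, the partner of the histone H3 lysine methyltransferase SETDB1, was higher at 109 ± 4.81 in siRNA libraries and 84.4 ± 5.48 in NC libraries (log2 change 0.37, adjusted p = 0.0083), whereas SETDB1 itself was lower at 55.1 ± 4.30 in siRNA libraries and 85.3 ± 4.78 in NC libraries (log2 change -0.62, adjusted p = 0.00092).

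EHMT1, another histone H3 lysine methyltransferase, MBD3 of the NuRD complex and PCGF6, a subunit of the Polycomb complex that silences germline genes, were lower by 0.64, 0.69 and 0.87 on the log2 scale (limma adjusted p = 0.00146, 0.0031 and 0.00541). MGA, the DNA-binding partner of PCGF6, was higher by 0.52 (adjusted p = 0.0163), a call lost without siRNA replicate 2 or 3, with adjusted p up to 0.0540. ZBTB33, a methyl-CpG reader, was higher by 0.33 (adjusted p = 0.0241), a call lost without siRNA replicate 1, 2 or 3 or without NC replicate 4, with adjusted p up to 0.0709. Of the DNA methyltransferases DNMT3B was lower at 9.99 ± 0.918 in siRNA libraries and 30.8 ± 14.3 in NC libraries (log2 change -1.42, limma adjusted p = 0.00563), with 46.3, 39.3, 16.6 and 20.9 in NC replicates 1 to 4. The call held in 20 of 20 alternatives, and the log2 change was -0.84 with NC replicates 1 and 2 left out. With NC replicates 3 and 4 left out it was -2.0. DNMT1 and DNMT3A and their guide UHRF1 did not pass, and UHRF1 was at 35.9 to 69.4 in siRNA libraries, against 56.1 and 54.6 in NC replicates 1 and 2 and 204 and 220.5 in NC replicates 3 and 4. Without NC replicates 1 and 2 the number called in this list was 32, and without NC replicates 3 and 4 it was 30. Over all 11812 tested genes these fits called 7782 and 6830, beside 5015 with all 8 libraries. DNMT1, DNMT3A, DNMT3B and UHRF1 were named after their values were seen.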

How the data were processed

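Poly(A)-selected RNA of 8 HCCLM3 libraries, 4 siRNA and 4 NC, was sequenced with paired reads of 150 bases, per the labels. The deposited signal is a scaled read count by the authors. It equalled edgeR's TMM-normalized CPM, over the 11818 listed genes, of the reads recovered from it, with a largest difference of 1.4e-06 percent. Every value (100%) was a whole number of reads to within 0.02, and the lowest value of 4 columns was 2 reads. The submitters' processing notes name build hg38 and the tools HISAT2, HTSeq 0.12.4, edgeR, DESeq2, Trimmomatic and FastQC; what each did, and the use of strand, was not given in the sources used here. Each gene in the table was above 1 in at least 3 libraries, so low genes had been removed before deposit.

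The test was limma 3.58.1 (R 4.3.3; trend and robust) on log2(value + 1) for the 11812 genes that reached 1 in 4 or more libraries, group as the only term, Benjamini-Hochberg adjusted p under 0.05. It was also run on simulated data with few changed genes and no NC pairs, so that run does not measure the error in these libraries. Log2 changes on this scale understate changes of low genes; fold values are ratios of means of deposited values. Alternatives were edgeR 4.0.16 quasi-likelihood, DESeq2 1.42.0 and voom on recovered reads, pseudocounts 0.1 and 5, other filters, other scaling, adjusted p under 0.01, a replicate block and leaving out libraries. The floor is 3 reads and covers counting error only.

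The members, gene lists and rules were chosen with earlier results of these data known. Named genes were the members, PTK2, the 3 closest profiles to each member, all MAGE superfamily genes, the 4 smallest p in each direction of each list, the neighbours and the liver markers, which are given mostly by count (1 listed item is not reported here); other names are said to be chosen after seeing values. Gene positions and lengths came from GENCODE v29 on GRCh38 by symbol (11806 matched, 12 did not). Lengths count every annotated exon of a gene, so values per kilobase depend on the annotation. Promoter windows came from RefSeq on GRCh38.p14.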

Additional observations from a re-analysis of the deposited data

Results flagged for a closer look

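Among 166 groups of 4 libraries of the named genes, 5 held a library far from the other 3, with a gap over 0.83 of the group's range; chance gives about 1 in 20 groups. CSAG1 stood at 0.392 in siRNA replicate 1, from 11 reads, where the other siRNA libraries had 0. GSPT2, next to MAGED1, stood at 34.4 in siRNA replicate 3 and at 30.6 to 31.0 in the other siRNA libraries. UXT, next to SSX1, stood at 18.5 in siRNA replicate 1 and at 16.3 to 16.5 in the others. ZBTB33 stood at 104 in siRNA replicate 4 and at 115 to 117 in the others, and the liver marker TF at 13.5 in NC replicate 3 and at 22.1 to 23.1 in the other NC libraries.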

How the results depend on the processing

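Directions of the 5 members' changes held with each pseudocount, scaling and left-out library. The members were chosen by these same values, so this is no support for them. The other tests, the filters and the replicate block were not read for the members. Their log2 changes with a pseudocount of 0.1 and of 5 were 5.66 and 3.27 for SSX1, -6.69 and -2.76 for MAGEA12, and -6.81 and -2.09 for CSAG1. MAGED1 was at -1.64 without NC replicates 1 and 2 and at -1.11 without NC replicates 3 and 4. Leaving out 1 library gave 4.71 to 4.89 for SSX1, -4.79 to -4.61 for MAGEA12, -4.14 to -3.94 for CSAG1, -1.47 to -1.28 for MAGED1 and -0.36 to -0.27 for MAGED2.

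Of all genes 5015 were called with 8 libraries, 5002 by edgeR, 5689 by DESeq2 and 4919 by voom. Without NC replicates 1 and 2 the count was 7782, and without NC replicates 3 and 4 it was 6830. At adjusted p under 0.01 it was 3034, and with 1 library left out 3853 to 5535. With a mean of at least 5 the calls were 3 for other MAGE genes and 10 for other cancer-testis genes, beside 4414 over all genes. That filter took listed genes out of the test, MAGEA6, MAGEC1, MAGEE1 and HORMAD1 among them, so their calls were not tested again. Without NC replicates 1 and 2 the calls were 27 for cancer-testis and 32 for chromatin genes, and without NC replicates 3 and 4 they were 25 for partners and 30 for chromatin genes. At adjusted p under 0.01 they were 8 for cancer-testis genes, 8 for partners and 9 for chromatin genes. With 1 library left out they ranged from 5 to 6 for MAGE genes, 11 to 22 for cancer-testis genes (11 without siRNA replicate 3), 11 to 15 for partners, 13 to 19 for chromatin genes and 13 to 16 for neighbours. The cause was not tested.

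With a replicate block 4546 genes were called. Deviations of same-numbered libraries from their group means correlated at -0.068, 0.146, -0.066 and 0.161 for replicates 1 to 4. Differently numbered libraries reached from -0.178 (siRNA replicate 1 with NC replicate 4) to 0.155 (siRNA replicate 3 with NC replicate 4). No clear pairing by number was seen, but the NC pairs enter these deviations, so pairing was not settled.

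Many of the 78 named genes were picked from these same libraries for a small p or a profile like a member's, so calls that held are no support. Among the 78 genes 1539 comparisons held, 42 lost a call and 25 gained one. In 6 genes not called with 8 libraries, 20 comparisons changed sign. Those log2 changes were 0.020 for APEX2, -0.25 for FOXA2 and -0.076 for FTSJ1 without NC replicates 3 and 4, and 0.025 for CCNB3, 0.18 for GSPT2 and -0.15 for ZNF81 without NC replicates 1 and 2. FOXA2 was also at -0.025 with library totals and -0.0038 by DESeq2. With 1 library left out CCNB3 ranged from -0.090 to 0.035, FOXA2 from -0.11 to 0.11, GSPT2 from -0.12 to 0.069 and ZNF81 from -0.015 to 0.16. Scaling to library totals moved the median of all genes by -0.035. MAGEA12 and CSAG1 in siRNA libraries rest on 0 to 16 reads, so their ratios are set by few reads.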
